A study of Mus musculus with 30 samples.

Results

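The Maf transcription factors described here are the genes Maf, Maff, Mafg and Mafk, 4 of the 35972 genes shared by the RNA tables of the series. They were chosen by name, with earlier results of the RNA comparisons known, so their changes are given as a description with standard errors and without p-values. Sites of accessible chromatin were added where the authors' deposited tables annotate them to a member.

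Maf proteins are basic leucine zipper factors that bind DNA as dimers. The large members, among them c-Maf (encoded by Maf), carry an activation domain and are known as regulators of differentiation, for example in macrophages, lens and cartilage. The small members Maff, Mafg and Mafk lack an activation domain. They pair with CNC and BACH proteins, and the outcome depends on the partner: with Nrf2 (encoded by Nfe2l2) they activate antioxidant genes through the antioxidant response element, and with Bach1 or Bach2 they repress such genes.

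RNA was measured by sequencing in primary fibroblasts from mouse tail tendon, labelled wildtype, that had been grown in medium with 10% serum and treated in medium with 0.1% serum. The groups were the solvent DMSO, 10 µM blebbistatin and 30 µM Y27632, with 3 libraries each. Blebbistatin inhibits non-muscle myosin II, and Y27632 inhibits kinases that activate that myosin, so both lower the contractile force of the actin cytoskeleton. Each inhibitor was given at 1 dose, and the labels do not say whether these doses match in effect. Chromatin sites came from 9 ATAC libraries of these 3 treatments and from 12 libraries that combined 10 ng/mL doxycycline or none with 10 µM blebbistatin or none, 3 per group. The labels do not say what doxycycline induced, and the sex, age and number of animals are not used here. Nothing in the labels says that the libraries of a group came from separate animals or cultures, so p-values measure the spread between these libraries, which may be technical.

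The libraries held 23375386 to 37061737 reads in genes, and every pair of replicates differed by more than counting noise. All 7 fibroblast markers and all 4 tendon markers (Scx, Tnmd, Mkx and Fmod) had mean normalised counts of at least 10. Of 4 muscle progenitor markers 0 reached a mean of 10 in any group. Myod1 and Myf5 were at 0 in every library, Pax7 had a mean of 0.27 with blebbistatin, and Des had means of 6.62 to 7.89. Of 3 chondrocyte markers only Col2a1 reached a mean of 10, with means of 14.4 to 24.0. Of 7 macrophage markers 6 were at or above a mean of 10. Their summed level was 1303 to 1491 normalised counts with DMSO and 1832 to 2154 with blebbistatin in one table, and 1352 to 1550 with DMSO and 1853 to 2169 with Y27632 in the other. Cd163, the remaining macrophage marker, had means of 3.19 with DMSO and 8.82 with blebbistatin in the first table, and 3.31 with DMSO and 3.19 with Y27632 in the second. The summed level of 4 endothelial markers, nearly all of it Tek, was 3166 to 3230 with DMSO and 2005 to 2250 with blebbistatin. In the second table it was 3290 to 3353 with DMSO and 2955 to 3153 with Y27632. Of these markers only Tek had a lower mean with each inhibitor. The means of Cdh5, Kdr and Pecam1, all far below Tek in level, were higher than with DMSO. For Cdh5 they were 66.97 with DMSO and 82.51 with blebbistatin, and 69.57 with DMSO and 87.81 with Y27632. Maf is also expressed in macrophages. The part of such cells in the values below was not tested. In a bulk sample, fewer cells of a type and less RNA per cell cannot be told apart.

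Promoter windows from RefSeq (GRCm38.p6, 250 bases before to 50 after a start) were found for 3 of the 4 members, Maff, Mafg and Mafk. They are shown because each holds the core of the antioxidant response element, the DNA word that small Maf dimers with CNC partners are known to bind. The 250 bases before the start are printed 5′ to 3′ on the strand of the gene, and capitals mark the match to TGACNNNGC or to its reverse complement. The Maff window is chr15:79346371-79346670 on the plus strand, the Mafg window chr11:120633498-120633797 on the minus strand and the Mafk window chr5:139791286-139791585 on the plus strand.
Maff: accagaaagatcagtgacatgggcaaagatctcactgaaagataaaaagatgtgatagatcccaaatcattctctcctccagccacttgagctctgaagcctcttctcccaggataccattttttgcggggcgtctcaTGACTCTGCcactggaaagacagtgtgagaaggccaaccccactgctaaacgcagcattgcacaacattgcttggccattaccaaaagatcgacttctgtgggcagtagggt
Mafg: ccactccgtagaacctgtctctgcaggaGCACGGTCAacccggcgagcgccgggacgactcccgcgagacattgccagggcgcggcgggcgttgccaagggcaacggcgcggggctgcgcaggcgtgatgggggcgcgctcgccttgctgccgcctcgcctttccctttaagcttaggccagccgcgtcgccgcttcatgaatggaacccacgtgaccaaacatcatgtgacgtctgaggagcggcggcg
Mafk: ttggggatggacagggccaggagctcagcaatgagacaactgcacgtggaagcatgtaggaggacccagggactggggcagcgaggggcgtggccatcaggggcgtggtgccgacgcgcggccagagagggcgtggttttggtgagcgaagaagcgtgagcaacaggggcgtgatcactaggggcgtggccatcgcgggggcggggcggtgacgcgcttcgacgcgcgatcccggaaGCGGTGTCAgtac

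Maff has 3 windows in the RefSeq table, of which the first, shown above, holds the match and the other two do not. Over all 32851 promoter windows, 4071 (12.4%) hold TGACNNNGC on either strand. It is in 3 of the 5 windows of these genes and in 7 of the 27 windows of the antioxidant response genes described below. The match begins 112 bases before the start in Maff, 222 in Mafg and 13 in Mafk. No member window holds TGCTGAC, a stretch of the Maf recognition element that 4.67% of all windows hold, or TGACTCA, the AP-1 site that 5.20% hold. The patterns do not exclude each other, and a stretch that fits the AP-1 site can also fit the first of them. A match is a string of letters and no record of binding.

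Mafg rose and Mafk fell with blebbistatin, while Y27632 left both close to DMSO. Mafg had 3435, 3281 and 3496 normalised counts in the DMSO libraries and 4261, 3886 and 4077 in the blebbistatin libraries. Every blebbistatin library lay above every DMSO library. The log2 change was 0.26 with a standard error of 0.041. Mafk had 1276, 1252 and 1206 normalised counts with DMSO and 872.5, 981.7 and 932.6 with blebbistatin, and here every blebbistatin library lay below every DMSO library. Its log2 change was -0.42 with a standard error of 0.052.

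With Y27632, Mafg was at 3599, 3670 and 3454 normalised counts, inside and just above the 3571, 3406 and 3633 of the DMSO libraries on the scale of that table. Mafk was at 1311, 1195 and 1337 against 1326, 1300 and 1253 with DMSO. Both genes overlapped between the groups. The log2 changes were 0.02 for Mafg and -0.01 for Mafk, with standard errors of 0.037 and 0.049. The sign of these small values was not stable: without DMSO replicate 2 Mafg was at -0.01, and without Y27632 replicate 2 Mafk was at 0.03.

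Maff, whose gene is known for rapid induction by stress and growth signals, had changes of opposite sign under the inhibitors, with more spread than the other members. It had 759.6, 786.5 and 796.1 normalised counts with DMSO and 610.8, 746.5 and 724.0 with blebbistatin. The blebbistatin libraries were all lower, but the second lay close under the lowest DMSO library. The log2 change of -0.18 (standard error 0.071) did not reach the threshold and ranged from -0.23 without blebbistatin replicate 2 to -0.09 without blebbistatin replicate 1. It passed the threshold in 3 of 15 settings, namely without blebbistatin replicate 2, without blebbistatin replicate 3 and with the replicate number as a block. In the table of Y27632 it had 789.6, 816.5 and 827.3 with DMSO and 1006, 806.7 and 1070 with Y27632. Y27632 replicates 1 and 3 lay above all DMSO libraries and replicate 2 lay among them. The log2 change was 0.23 (standard error 0.082), with values of 0.15 when Y27632 replicate 3 was left out and 0.35 when replicate 2 was. It passed the threshold with all libraries, and not when any DMSO library, Y27632 replicate 1 or Y27632 replicate 3 was left out. Maff was chosen with earlier results of these comparisons known, so nothing is read from where it passed or missed the threshold.

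Maf, the member with an activation domain, fell with Y27632 and stayed near DMSO with blebbistatin. It had 2059, 2080 and 2052 normalised counts with DMSO and 1630, 1765 and 1709 with Y27632. All Y27632 libraries were lower than all DMSO libraries, and the log2 change was -0.28 with a standard error of 0.039. With blebbistatin it had 2020, 2217 and 1953 normalised counts against 1981, 2003 and 1975 with DMSO. The groups overlapped, and blebbistatin replicate 2 stood highest. The log2 change was 0.05 with a standard error of 0.047, and it was 0.00 without that library.

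Set against all genes tested, these were changes of ordinary size. The threshold for a call was an adjusted p of 0.05, with Benjamini-Hochberg adjustment over all genes tested. With blebbistatin 1 member was called higher and 1 lower, where limma called 53% of 14882 genes, 26.1% higher and 26.9% lower. With Y27632 1 member was called higher and 1 lower, where 35.9% of 14833 genes were called, 18.1% higher and 17.8% lower. The members were selected on these contrasts, so nothing is read from these counts. The median log2 change of the 4 members was -0.06 with blebbistatin and 0.00 with Y27632, beside 0.00 and 0.00 over all genes. With blebbistatin, 72.8% of all genes changed by less than Mafk in absolute terms and 55.5% by less than Mafg. With Y27632, 73.9% changed by less than Maf and 68.1% by less than Maff.

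The plot of levels by library shows all 9 RNA libraries on 1 scale, TMM-scaled CPM (the reads of a gene relative to a common library size), which allows the inhibitors to be set side by side for each gene. Maf stood at 74.8 ± 0.469 with DMSO, 77.8 ± 5.64 with blebbistatin and 61.7 ± 2.36 with Y27632 (SD, n = 3 for each value here). DMSO and blebbistatin overlapped and Y27632 lay below both. Maff stood at 29.4 ± 0.746, 26.2 ± 2.82 and 34.8 ± 4.94, with blebbistatin below both other groups and Y27632 overlapping with DMSO. Mafg stood at 128.1 ± 4.37, 153.5 ± 6.39 and 129.6 ± 4.31, with blebbistatin above the other two groups, which overlapped. Mafk stood at 46.8 ± 1.26, 35.0 ± 2.22 and 46.5 ± 2.70, with blebbistatin below the other two groups, which overlapped.

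**Figure D1:**
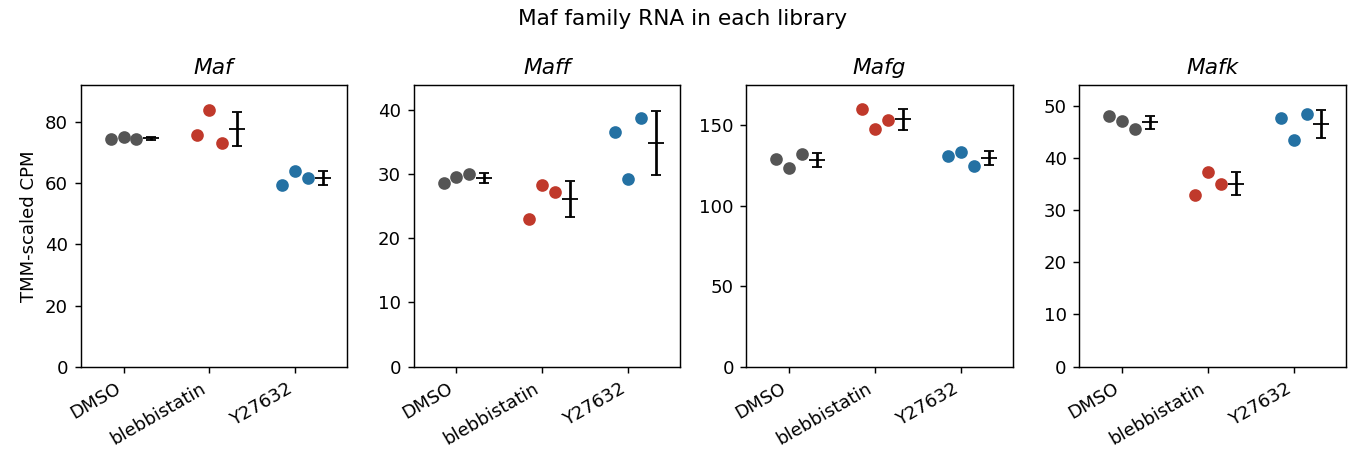
RNA of the 4 Maf members in each library, in TMM-scaled CPM (vertical axis, from 0, a separate range for each gene); points are libraries and the bar beside them is the mean ± SD of 3. Mafg is highest and Mafk and Maff lowest with blebbistatin, and Maf is lowest with Y27632.

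The inhibitors were set against each other directly in the edgeR fit of all 9 libraries. The log2 difference, blebbistatin minus Y27632, was 0.34 (standard error 0.048) for Maf and 0.24 (0.039) for Mafg, and -0.41 for both Maff (0.092) and Mafk (0.055). Of the members 2 were called higher and 2 lower with blebbistatin, where edgeR called 53.1% of 14926 genes, 25.8% higher and 27.3% lower, and nothing is read from these calls either. These differences came from different sides: those of Mafg and Mafk from a change with blebbistatin, that of Maf from a change with Y27632 and that of Maff from opposite values.

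Of the other large Maf genes on the list, Mafa had at most 2 reads in any library and Nrl had 2 reads in 1 library and 0 in the others, and neither was tested.

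**Figure D2:**
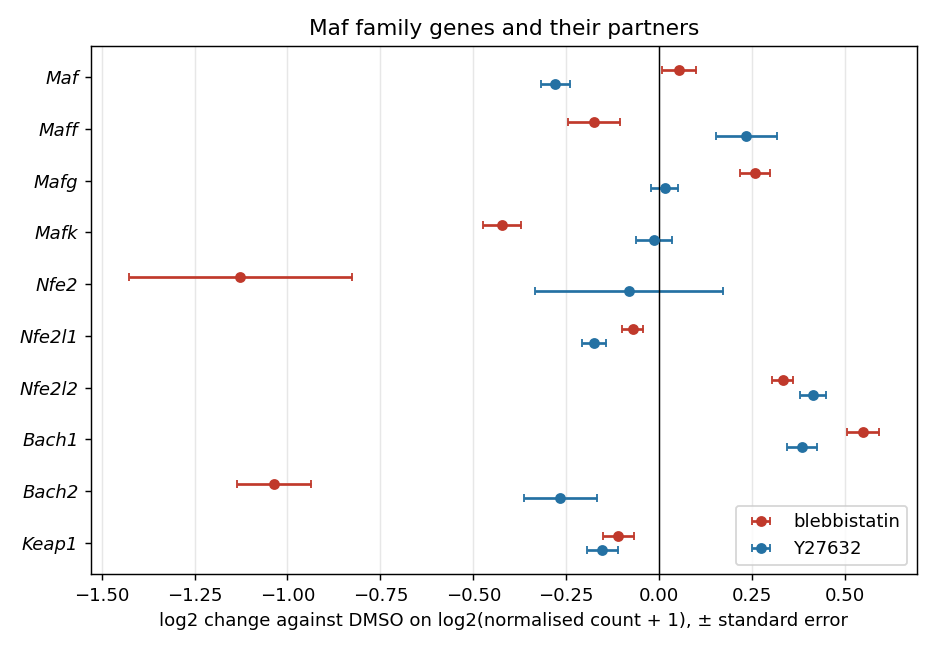
Log2 changes against DMSO of the Maf genes, their CNC and BACH partners and Keap1 (horizontal axis, on log2(normalised count + 1); points with standard errors, n = 3 libraries against 3; red blebbistatin, blue Y27632). Among the members Mafk lies farthest left of 0 with blebbistatin and Maf with Y27632, Bach2 and Nfe2 lie near -1 with blebbistatin, and Nfe2l2 and Bach1 lie right of 0 with both inhibitors.

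The partners of the small Maf proteins changed in both directions, and 2 of them, an activator and a repressor, rose with each inhibitor. Of the 5 partner genes tested, 2 rose and 3 fell with blebbistatin, beside 26.1% of all genes called higher and 26.9% lower. With Y27632 2 rose, 2 fell and 1 was not called, beside 18.1% of all genes higher and 17.8% lower. The medians were -0.07 and -0.08. Nfe2l2, which encodes Nrf2, had 5366 ± 36.3 normalised counts with DMSO and 6759 ± 66.6 under blebbistatin (SD, n = 3), so that it rose by 0.33 on the log2 scale (limma adjusted p = 9.72e-07). With Y27632 it changed by 0.41 (limma adjusted p = 1.84e-06). Bach1, the haem-sensitive repressor, had 2433 ± 121 normalised counts with DMSO and 3557 ± 137 under blebbistatin (SD, n = 3), and rose by 0.55 on the log2 scale (limma adjusted p = 4.47e-07). Its change with Y27632 was 0.39 (limma adjusted p = 1.10e-05). The inhibitors differed by 0.16 for Bach1 (edgeR adjusted p = 0.0031) and by -0.08 for Nfe2l2 (edgeR adjusted p = 0.0527), a value that passed the threshold without Y27632 replicate 2 (-0.12, edgeR adjusted p = 0.0041).

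Bach2, a repressor best known from lymphocytes, had 381.3, 451.2 and 358.4 normalised counts with DMSO and 179.7, 188.3 and 209.5 with blebbistatin. All blebbistatin libraries were lower, with a log2 change of -1.04 (limma adjusted p = 2.38e-06). With Y27632 the change was -0.27 (limma adjusted p = 0.0498), a call lost when DMSO replicate 1 or 2 or Y27632 replicate 1 or 2 was left out (-0.17 without DMSO replicate 2). With all libraries kept, that call was also lost with a pseudocount of 5, without the filter or with the replicate block. It was made in 8 of 15 settings. The inhibitors differed by -0.77 (edgeR adjusted p = 2.97e-05). Nfe2, the CNC factor of blood cells, was near the floor of what these libraries hold, at 20 to 40 reads with DMSO and 12 to 24 with blebbistatin. It fell by 1.13 on the log2 scale with blebbistatin (limma adjusted p = 0.0073) and had a value of -0.08 with Y27632 (limma adjusted p = 0.833). Nfe2l3 had at most 4 reads in a library and was not tested.

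Nfe2l1, which encodes the CNC factor that controls proteasome genes, and Keap1, which encodes the adaptor that leads Nrf2 to degradation, changed little. Nfe2l1 changed by -0.07 with blebbistatin (limma adjusted p = 0.0426), a call lost with any 1 library left out, and by -0.18 with Y27632 (limma adjusted p = 0.0012). Keap1 changed by -0.11 with blebbistatin (limma adjusted p = 0.0408), a call lost without DMSO replicate 1 or 2 or blebbistatin replicate 1 or 3. That call was also lost without the filter or with DESeq2, and was made in 9 of 15 settings. With Y27632 Keap1 changed by -0.15 (limma adjusted p = 0.0115), a call lost without DMSO replicate 1 or Y27632 replicate 1. Between the inhibitors Nfe2l1 differed by 0.10 (edgeR adjusted p = 0.0101), which was lost without Y27632 replicate 1, and Keap1 by 0.05 (edgeR adjusted p = 0.380).

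Genes known to answer to the antioxidant response element were mostly higher with blebbistatin, both against DMSO and against Y27632. This list, like the others here, was chosen with earlier results of these data known, so its counts are a description. Of its 25 genes, all tested, 18 rose, 3 fell and 4 were not called with blebbistatin. Over all genes tested, 26.1% were called higher and 26.9% lower. With Y27632 4 rose, 8 fell and 13 were not called, beside 18.1% of all genes higher and 17.8% lower. The number that fell with Y27632 was 5 when DMSO replicate 1 or 3 or Y27632 replicate 1 or 2 was left out, since calls of Gclm, Pgd, Taldo1 or Tkt were lost. Between the inhibitors 20 were higher with blebbistatin, 1 was lower and 4 were not called, beside 25.8% and 27.3% of all genes. Over 15 settings, 18 to 21 of these genes were called with blebbistatin, 9 to 13 with Y27632 and 17 to 21 between the inhibitors. The medians of the list were 0.28, -0.01 and 0.25, beside 0.00, 0.00 and -0.01 over all genes tested.

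Hmox1, which encodes the haem-degrading oxygenase and is a standard target of Bach1 repression, led the list. It had 3768, 3678 and 3744 normalised counts with DMSO and 9366, 9085 and 9429 with blebbistatin, a log2 change of 1.32 (limma adjusted p = 1.09e-11). With Y27632 it had 3704, 3430 and 3862 against 3917, 3818 and 3891 with DMSO, a value of -0.08 (limma adjusted p = 0.140). Y27632 replicate 3 overlapped with DMSO, and without it the value was -0.12 (limma adjusted p = 0.0455). The inhibitors differed by 1.40 (edgeR adjusted p = 4.60e-12). Next with blebbistatin came Gsta4, a glutathione transferase gene, with a log2 change of 0.93 (limma adjusted p = 1.04e-07), and Gclc, which encodes the catalytic subunit for the first step of glutathione synthesis, with 0.87 (limma adjusted p = 5.43e-08).

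The 3 genes of the list that fell with blebbistatin were Me1, which encodes malic enzyme, G6pdx, which encodes glucose-6-phosphate dehydrogenase, and Taldo1, which encodes transaldolase. Me1 changed by -0.43 (limma adjusted p = 2.02e-06), G6pdx by -0.14 (limma adjusted p = 0.0031) and Taldo1 by -0.13 (limma adjusted p = 0.0217). The call for Taldo1 was lost without DMSO replicate 1 or 3 or blebbistatin replicate 1 or 2. With Y27632 the largest increases were those of Gsta4 at 0.44, Gclc at 0.35 and Fth1, ferritin heavy chain, at 0.30 (limma adjusted p = 1.38e-05, 0.00036 and 4.11e-05). The largest decreases with Y27632 were those of Osgin1 at -0.50, Me1 at -0.18 and Slc7a11, the cystine transporter gene, at -0.15 (limma adjusted p = 0.0023, 0.00047 and 0.0057).

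Besides Hmox1, the largest differences between the inhibitors in this list were those of Osgin1 at 0.79 and Srxn1, sulfiredoxin, at 0.57 (edgeR adjusted p = 6.18e-06 and 6.56e-08). Osgin1 rose by 0.29 with blebbistatin (limma adjusted p = 0.0081) and fell with Y27632, as given above. Srxn1 rose by 0.60 with blebbistatin (limma adjusted p = 5.42e-08) and had a value of 0.03 with Y27632 (limma adjusted p = 0.618). Me1 alone was lower with blebbistatin than with Y27632, by -0.25 (edgeR adjusted p = 4.40e-05).

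**Figure D3:**
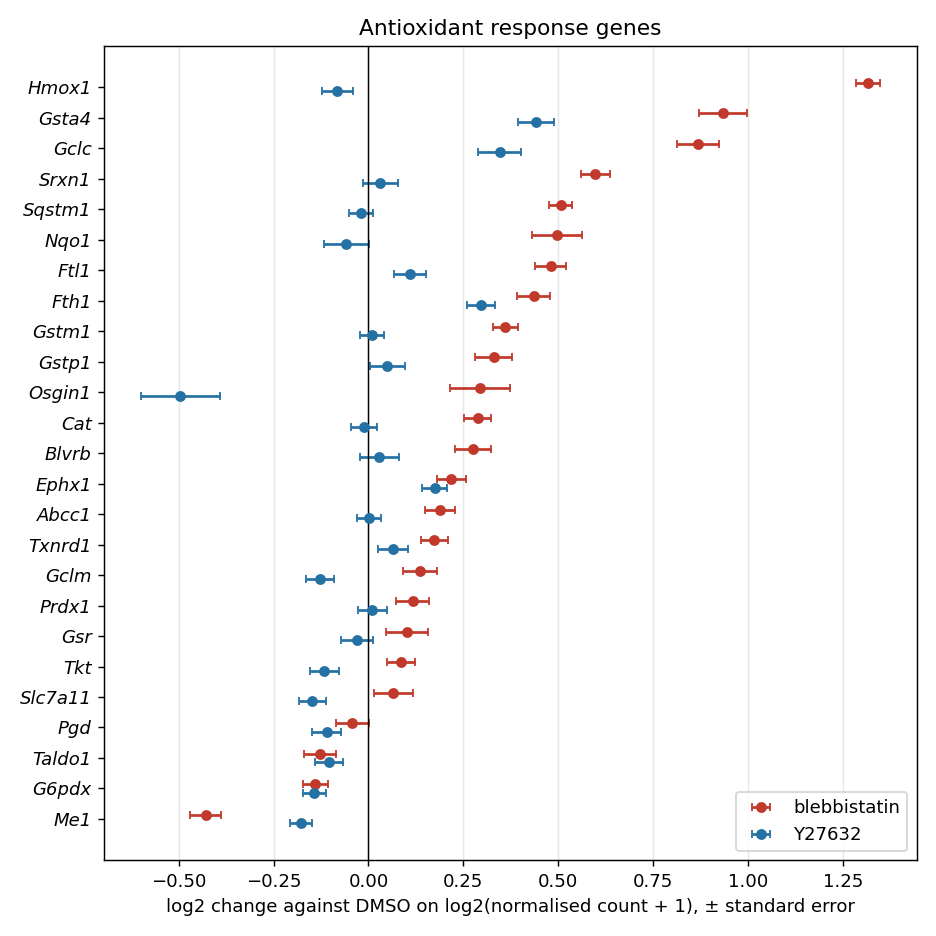
Log2 changes against DMSO of the 25 antioxidant response genes, ordered by the change with blebbistatin (horizontal axis, on log2(normalised count + 1); points with standard errors, n = 3 libraries against 3). The red points of blebbistatin lie right of 0 for all but 4 genes, with Hmox1 at 1.32, and the blue points of Y27632 gather near 0, with Osgin1 at -0.50.

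Genes tied to c-Maf in other cell types, such as lymphocytes, lens and cartilage, changed in both directions. Of 10 such genes 6 were tested, and 3 rose, 2 fell and 1 was not called with each inhibitor. Over all genes tested, 26.1% were called higher and 26.9% lower with blebbistatin, and 18.1% and 17.8% with Y27632. The medians were 0.33 with blebbistatin and 0.43 with Y27632. Ccr1, a chemokine receptor gene, changed by 0.84 and 0.93 (limma adjusted p = 0.00065 and 0.00047), at a low mean of 36.7 normalised counts with DMSO in the blebbistatin table. Sox9, the cartilage regulator, changed by 0.55 and 0.52 (limma adjusted p = 0.0012 and 0.0023), and Itgb7, an integrin gene, by 0.37 and 0.34 (limma adjusted p = 0.00097 and 0.0029). Ccnd2, cyclin D2, changed by -0.43 and -0.52 (limma adjusted p = 3.36e-07 and 6.11e-08), and Cryab, a small heat shock protein gene, by -0.53 and -0.34 (limma adjusted p = 1.02e-07 and 1.91e-05).

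Between the inhibitors Cryab differed by -0.19 (edgeR adjusted p = 0.0009) and Ccnd2 by 0.10 (edgeR adjusted p = 0.0262). The call of Ccnd2 was lost without blebbistatin replicate 1 or 2 or Y27632 replicate 1 or 2. The remaining 4 genes were not called, where 53.1% of all genes tested were called. The comparisons with DMSO share the DMSO libraries.

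Fos and Jun, with which c-Maf can form dimers, rose more with Y27632. Fos changed by 0.44 with blebbistatin (limma adjusted p = 0.0079) and by 1.70 with Y27632 (limma adjusted p = 7.74e-08), and Jun by 0.69 with blebbistatin (limma adjusted p = 1.90e-06) and 1.19 with Y27632 (limma adjusted p = 1.02e-08). The inhibitors differed by -1.26 for Fos and by -0.50 for Jun (edgeR adjusted p = 1.52e-07 and 4.95e-05).

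Across the 9 libraries, the genes with the pattern most like that of Maf among 11447 genes with a mean of at least 100 were Fam189b, Adamts4 and Sh3bp4, each with a Pearson correlation of 0.98. For Maff they were Rnf4 at 0.96 and Larp4b and Fopnl, each at 0.95. For Mafg they were Map3k12 and Tprkb, each at 0.99, and Atp6v1c1 at 0.98. For Mafk they were Prr5, Timm23 and Rapgef2, each at 0.99. These correlations describe 9 libraries in 3 groups of shared treatment and have no test. Ranked by Spearman correlation, 1 of the 3 genes remained for Maf and 1 for Mafg, and 0 for Maff and Mafk.

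In the chromatin data, 10 listed sites were annotated to members, 9 to Maf and 1 to Mafk, and 0 to Maff or Mafg. Sites are counted per list, so a stretch found in more than 1 list counts for each. The lists hold 1.54% of the sites tested for blebbistatin in ATAC, 0.335% for Y27632 in ATAC, 1.78% for blebbistatin without doxycycline, 8.75% for blebbistatin with doxycycline and 9.36% for doxycycline alone. All values of sites are log2 group means and folds of the authors, who list no values per library, so no test was made here. Coordinates are those of the lists, for which the submitters' processing notes name mm10, the build that is also called GRCm38.

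The Mafk site is the closest to a member's start. In the authors' deposited table of doxycycline against neither drug, chr5:139797830-139798127 lies in intron 1 of 2 of Mafk, 6443 bases from the start. Its log2 mean rose from 6.51 to 8.08, a fold of 1.57 on the log2 scale with an FDR of 8.29e-14, and 90.1% of the sites of that list had a smaller absolute fold. Of all sites in that list, 4.15% were lower, so a higher site there is the common case.

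The Maf sites lie far from the gene, which spans chr8:115703253-115706894. In the authors' deposited ATAC table of blebbistatin against DMSO the single Maf site is chr8:115109418-115109692, 597339 bases downstream of the start and inside intron 8 of 8 of NM_019573, a transcript of the neighbouring gene Wwox. Its log2 mean was 6.29 with DMSO and 4.84 with blebbistatin, a fold of -1.45 with an FDR of 0.0361. The file marks in it the sequence AGGAATGCAC, a match to a TEAD-like motif, at 67 bases from the peak's reference position. In the authors' deposited table of blebbistatin with doxycycline, 5 sites were annotated to Maf, and all were lower, with log2 folds of -1.18, -1.10, -1.06, -1.01 and -1. One of them, chr8:115109408-115109615, overlaps the ATAC site by 198 bases, 95.2% of the shorter site, and had the smallest of these folds. That fold lies at the cut of its list, an absolute log2 fold of 1. In these lists 98.2% and 99.8% of all sites were lower. The lists of blebbistatin without doxycycline and of Y27632 in ATAC hold 0 sites annotated to a member.

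With doxycycline alone, 3 sites annotated to Maf were higher in the authors' deposited table. They are chr8:115269917-115270294 with a log2 fold of 1.29, chr8:115270357-115270581 with 1.22 and chr8:115904136-115904441 with 1.55. The first and second lie in the same Wwox intron, 436788 and 436425 bases downstream of the Maf start, and the last is intergenic, 197395 bases upstream. None of these 3 overlaps a Maf site listed for blebbistatin. The lists of doxycycline alone and of blebbistatin with doxycycline share the group treated with doxycycline alone.

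**Figure D4:**
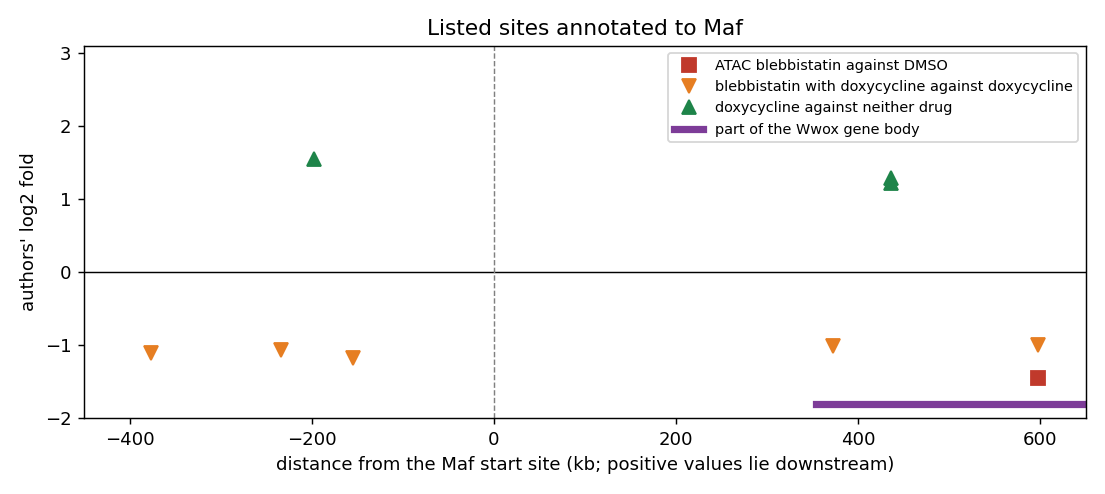
Sites annotated to Maf by distance from its start (horizontal axis, kb, positive values downstream) and the authors' log2 fold (vertical axis); squares ATAC with blebbistatin, downward triangles blebbistatin with doxycycline, upward triangles doxycycline alone. Every site lies more than 100 kb from the start, and those on the right lie over the drawn stretch of Wwox.

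Wwox holds 5 of these 9 sites as counted per list, among them the overlapping pair. Its RNA had values of 0.07 with blebbistatin and -0.06 with Y27632 (limma adjusted p = 0.429 and 0.491). A listed site of any annotation within 100 kb of a member's start was found for Mafk and Maff, a choice made after the data were seen. For Mafk the authors' deposited doxycycline table has, besides its own intron, a site at the promoter of Psmg3, chr5:139826813-139827037, with a log2 fold of 1.26, and an intergenic site at chr5:139862859-139863025 with 1.12, which had -1.06 with blebbistatin and doxycycline. For Maff it has a site in an intron of Pla2g6, chr15:79323441-79324005, with 1.40. Of the antioxidant response genes, Me1 and Pgd each had 1 site in the ATAC list of blebbistatin, and both sites were lower, as were 98.2% of that list. Abcc1, Ephx1, Prdx1 and Slc7a11 together had 5 sites in the list of blebbistatin with doxycycline, all lower, as were 99.8% of that list. In the doxycycline list Ephx1, Fth1, Gsr, Hmox1 and Slc7a11 each had 1 site, 4 of them higher and 1 lower. Of all sites in that list, 4.15% were lower, so nothing is read from this count. The lists for Y27632 and for blebbistatin without doxycycline had 0 sites of these genes.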

How the data were processed

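RNA was measured in 9 libraries and chromatin sites in 21 (9 and 12) of the 30. The 2 RNA tables, each scaled on its own, give for every gene the signal that the authors deposited: read counts over a size factor of the library. All values above 0 were whole multiples of 1 step within 0.1 read, and these whole counts were recovered. The submitters' processing notes name HISAT2, Picard, featureCounts, DESeq2, Bowtie2, SAMtools, MACS2, DiffBind, HOMER and mm10, without versions or roles; the use of strand is not given in the sources used here. Per the file headers, the deposited site lists give log2 group means, a log2 fold, a p-value and an FDR, and they hold only sites past an FDR of 0.05 and, in the doxycycline lists, an absolute log2 fold of 1. The numbers of sites tested (62846, 61804, 68975, 72539 and 81359) were worked out from rank, p-value and FDR. The header of the reference column in the list for doxycycline names another group. At 13 sites it differed from the group with neither drug by a mean of -0.13 (SD 0.0044) and from the group in its header by 1.12 (SD 0.184), and it was read as neither drug.

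Genes whose normalised counts averaged 10 or more were tested with limma-trend (limma 3.58.1, R 4.3.3) after log2(normalised count + 1), a scale that understates changes of low genes. For blebbistatin against Y27632 the recovered counts entered the quasi-likelihood test of edgeR 4.0.16 with TMM. Adjusted p-values are Benjamini-Hochberg values over all genes tested, two-sided, called under 0.05. The code was tested on simulated data. Alternatives were other pseudocounts, filters and scalings, edgeR, DESeq2 1.42.0, a replicate block and leaving out each library. The members and lists were chosen with earlier results of these data known. Named are the members, all partners, other large Maf genes (of which 1 is not reported here), the 3 highest and 3 lowest called genes of each other list, the 3 genes most like each member, and all member sites. Wwox, Gclm, Tkt, Pgd, Gsr, Prdx1, Txnrd1 and the sites of antioxidant genes were named after their values were seen. Of the gene names, 25 had been turned into dates. RefSeq's table gives genomic spans, so levels were not compared between genes, apart from the endothelial markers. There the counts are not corrected for transcript length.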

Additional observations from a re-analysis of the deposited data

How the results depend on the processing

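Over 15 settings, the genes called numbered 6828 (DESeq2) to 7913 (pseudocount 5) with blebbistatin, and with 1 library left out 6994 to 7394 with blebbistatin, 4304 to 4839 with Y27632 and 7157 to 7989 between the inhibitors. DESeq2 called 4271 with Y27632 and 7089 between the inhibitors. The number of members called was 2 or 3 with blebbistatin and 1 or 2 with Y27632, in each case through Maff. Sites annotated to members, counted per list, numbered 10, of which 9 had an FDR of at most 0.01 and 1 lay within 100 kb of the start. Also counted per list, 5 listed sites of any annotation lay within 100 kb, a setting chosen after seeing the data. Besides the lost calls given in the report, further calls of antioxidant response genes varied over the 15 settings. With blebbistatin Gclm and Prdx1 were each called in 11. With Y27632 Gclm was called in 11, Tkt in 12, Pgd in 8 and Taldo1 in 6. Between the inhibitors Gsr was called in 9, Prdx1 in 10 and Txnrd1 in 13. The call of Fth1 between the inhibitors was lost without Y27632 replicate 2. Libraries with the same replicate number did not deviate together (correlations of -0.21 to 0.09), so the numbers were not taken as pairs. With the replicate block 7604, 4633 and 7722 genes were called in the 3 comparisons. Depth limits Nfe2, at 12 to 40 reads, and site depth is unknown.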
